A study of Mus musculus with 10 samples.

Results

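The genes described here encode the SNARE proteins and the calcium-triggered exocytosis machinery that fuses secretory granules with their target membrane. They were chosen by name, as synaptotagmin, SNARE and priming-factor symbols matched to Ensembl gene IDs through the GENCODE mouse annotation, and they number 48 of the 55416 genes in the count table. A row was found for 47 of them. Vamp7, a vesicle SNARE, was not analysed here. Membrane fusion is driven by a bundle of SNARE proteins contributed by the vesicle (VAMPs) and by the target membrane (syntaxins and the SNAP-25 family). Synaptotagmins sense calcium, Unc13 and CAPS proteins prime granules, complexins clamp the assembled bundle until calcium arrives, syntaxin-binding proteins act as chaperones or brakes, and the ATPase NSF with its SNAP adaptors takes spent bundles apart. In the anterior pituitary this machinery releases peptide hormones from dense-core granules.

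RNA was recovered from mouse pituitary lysates and sequenced after removal of ribosomal RNA. The mice were of the FVB strain (sighted) and 8 to 10 weeks old. Each lysate held the pituitaries of 6 mice and was divided between an immunoprecipitation with pooled antibodies to Musashi1 and Musashi2, RNA-binding proteins that regulate translation mostly through the 3′ UTRs of mRNAs (Musashi IP), and one with control rabbit IgG (IgG). There were 5 Musashi IP libraries and 5 paired IgG libraries, from female lysates 2, 5 and 6 and male lysates 3 and 7. The labels name no genetic change or drug in either group, and a lysate pools the whole gland, so a value cannot be assigned to one pituitary cell type. The comparison asks which RNAs held a larger share of the Musashi IP library than of the IgG library from the same lysate.

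Musashi proteins recognise short RNA motifs made of a G or A, then 1 to 3 U, then AGU. The windows printed here are those nearest the stop codon in the 3′ UTRs of 5 of the most enriched members with such a motif (Snap29, Cplx2, Stx12, Syt9 and Syt7), with Snap25, an abundant member that was not enriched, for contrast. Sequences are from GENCODE M21 transcripts on GRCm38, written as DNA in the sense of the mRNA, with the motif in capitals and 10 bases on either side.
Snap29 site a: tctttgaaatATTAGTttcaatgggg
Snap29 site b: ggtaagaccaGTAGTtctaaaatta
Cplx2 site a: tttgtgggatGTAGTgtgcctgagt
Cplx2 site b: ccctgagacgGTTAGTcacagatggc
Stx12 site a: agtccttggaATTAGTgaccatggag
Stx12 site b: ccgattttggATAGTaaatgtggat
Syt9 site a: agcaagtggcATAGTaagtggcttg
Syt7 site a: gacactgaggATAGTatatagcctg
Syt7 site b: aatcccttatGTAGTaggtgaatca
Snap25 site a: aaggctgtacATAGTggtcatctgg
Snap25 site b: ttgctgagatGTTTAGTagctgataaa
On GRCm38 the Snap29 windows lie on the plus strand at chr16:17428414-17428439 and chr16:17428463-17428487, where the motifs begin at bases 124 and 173 of the 3′ UTR. The Cplx2 windows are at chr13:54381297-54381321 and chr13:54381588-54381613 on the plus strand, at bases 1598 and 1889. The Stx12 windows are at chr4:132855300-132855325 and chr4:132854668-132854692 on the minus strand, at bases 151 and 784. The Syt9 window is at chr7:107546793-107546817 on the plus strand, at base 275, and the Syt7 windows are at chr19:10448918-10448942 and chr19:10450191-10450215 on the plus strand, at bases 484 and 1757. The Snap25 windows are at chr2:136781385-136781409 and chr2:136782233-136782259 on the plus strand, at bases 252 and 1100. All 11 windows are exonic and within the annotated 3′ UTR, and a match to the motif is a description of the letters, not evidence of binding.

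Library totals ran from 6.67 to 13.02 M counts, with 10.4 ± 1.89 M in Musashi IP and 7.62 ± 1.08 M in IgG (mean ± SD, n = 5 each), and 1 count in the shallowest library equals 0.1498 counts per 1000000 counts of the library (CPM). That value is before scaling. The CPM values printed here are scaled by TMM factors, which align the libraries on the bulk of their genes. Lysate 6 stood apart: its Musashi IP library had the lowest TMM factor (0.783, against 0.944 to 1.05 in the other Musashi IP libraries), and its ratios were the widest. The pituitary label was met by the hormone-cell markers, 10 genes including Prl and Gh, whose summed level was 15934 to 41533 CPM in Musashi IP and 14192 to 53171 CPM in IgG, and was higher in Musashi IP in 2 of 5 pairs. Among them Fshb, the follicle-stimulating hormone beta subunit gene, was the only one that passed the test, with a log2 ratio of Musashi IP over IgG of 2.28 ± 0.37. The summed levels of 8 immune markers (28.1 to 49.0 CPM in Musashi IP and 39.2 to 64.8 CPM in IgG) and 5 red cell markers (272 to 691 CPM in Musashi IP and 463 to 1254 CPM in IgG) were lower in Musashi IP in 5 of 5 pairs. The summed level of 8 neuron and posterior lobe markers was 30.2 to 45.2 CPM in Musashi IP and 17.8 to 39.5 CPM in IgG, and was higher in Musashi IP in 5 of 5 pairs. The sum over 8 endothelial markers was 71.8 to 158 CPM in Musashi IP and 83.0 to 368 CPM in IgG. None of these markers was at 0 in all libraries. Of the neuron and posterior lobe list, Nefl, a neurofilament gene, passed the test (log2 2.13 ± 0.28). Both libraries of a pair came from the same cells, and the part of these markers in the results was not tested.

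The scaled level was higher in Musashi IP than in IgG for 22 of the 47 tested members, and lower for 1. These levels are shares of a library, and the amount of RNA recovered was not compared. Snap29, Syt4, Syt13 and Cplx2 rose most, by 2.42-fold to 4.11-fold, and Unc13d was the member that fell. Of 20550 genes tested, 18.5% were called higher and 8.4% lower (edgeR quasi-likelihood test with the lysate as a block, Benjamini-Hochberg adjusted p under 0.05). Among the 14202 protein-coding genes, to which all members belong, 25.7% were higher and 4.01% lower. Calls in either direction were made for 23 members, against 26.9% of all genes tested. The median log2 ratio of Musashi IP over IgG was 0.49 over the members, 0.09 over protein-coding genes and -0.07 over all tested genes. At least 2-fold enrichment was called for 8 members, against 7.07% of all genes tested and 1377 of the 14202 protein-coding genes. The shares that follow are over all genes tested and were not taken over protein-coding genes alone. The 22 members called higher were higher in 5 of 5 pairs, and for 14 members every Musashi IP library lay above every IgG library in CPM, against 9.69% of all genes. No member had every Musashi IP library below every IgG library, against 1.98% of all genes. Of the 24 members not called, 14 had a log2 ratio above 0 and 10 below 0. In all, 28 of the 47 members were higher in 5 of 5 pairs (22.4% of all genes) and 6 were lower in 5 of 5 pairs (18.6% of all genes). P-values rest on how much the ratio of Musashi IP over IgG varied among the 5 lysates, with the estimate of that spread sharing information across genes. Level differences between lysates are taken up by the block.

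**Figure D1:**
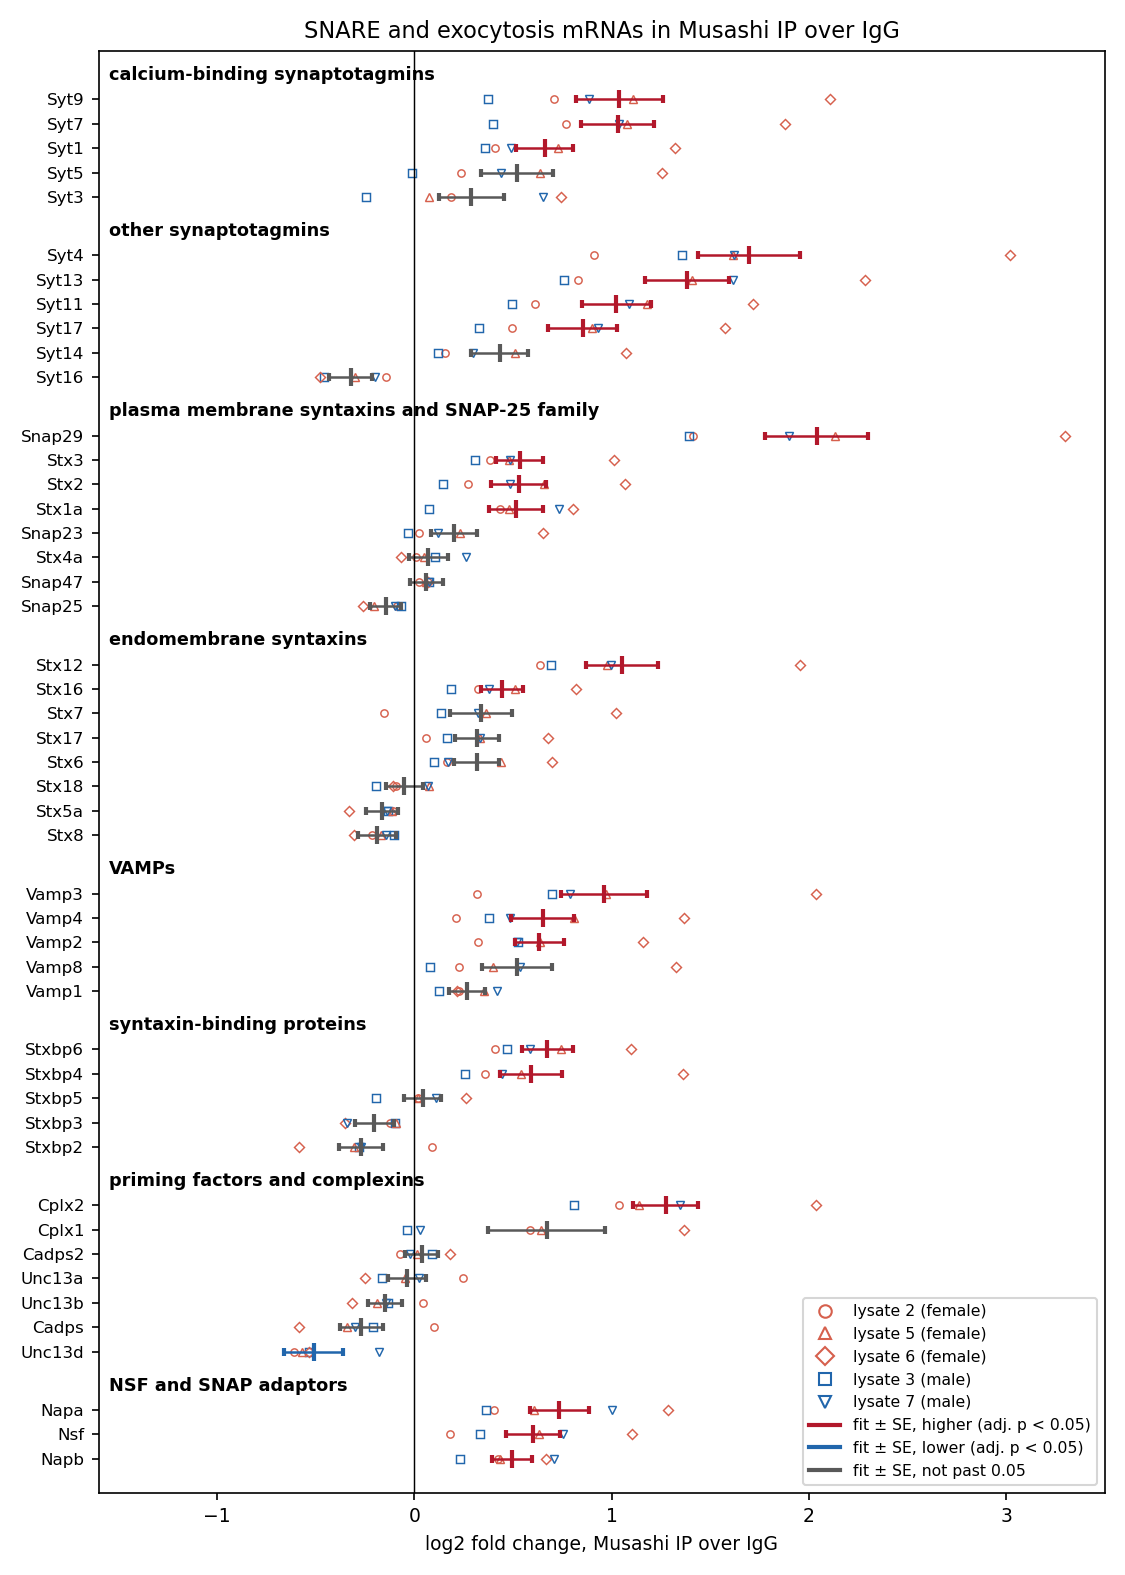
Log2 ratio of Musashi IP over IgG for the 47 tested members, grouped by role, with a tick for the fitted value, bars for its SE (n = 5 lysates), colour for the call and open symbols for single lysates. Values run from 2.04 (Snap29) to -0.51 (Unc13d), and the 22 members called higher occur in all 8 role groups.

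Among the 5 members grouped as calcium-binding synaptotagmins, Syt7, Syt9 and Syt1 rose and Syt3 and Syt5 did not pass the test. Of the tested synaptotagmins that are not members, Syt2 was called lower, Syt6 and Syt12 higher, and Syt15 not called. Syt7, a high-affinity sensor of slow and sustained release, had 425, 258, 398, 732 and 276 CPM in Musashi IP, against 249, 196, 188, 199 and 134 CPM in IgG, for lysates 2, 3, 5, 6 and 7 in that order, which is kept for all genes that follow. Every Musashi IP library of Syt7 was above every IgG library, and the narrowest pair was lysate 3. The enrichment was 2.04-fold (log2 1.03 ± 0.18, adjusted p = 0.00645). Syt9, another calcium sensor of regulated secretion, had 54.4, 54.5, 78.2, 154 and 70.1 CPM in Musashi IP, against 33.3, 42.1, 36.2, 35.4 and 37.8 CPM in IgG. Its IgG libraries lay close together, its groups did not overlap, and Musashi IP 6 was far above the rest (log2 1.04 ± 0.22, adjusted p = 0.0118). Syt1, the fast sensor of synchronous release in neurons and chromaffin cells, had 177, 189, 225, 316 and 254 CPM in Musashi IP, against 133, 148, 136, 126 and 181 CPM in IgG. Its groups overlapped at one point, since Musashi IP 2 was below IgG 7, although each lysate's own pair was higher in Musashi IP (log2 0.66 ± 0.14, adjusted p = 0.0129). Syt3 and Syt5 had log2 ratios of 0.29 ± 0.16 and 0.52 ± 0.18, with adjusted p of 0.208 and 0.0651.

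The other member synaptotagmins, 6 in number, had 4 that rose (Syt4, Syt13, Syt11 and Syt17). Syt4, a synaptotagmin of dense-core granules with atypical calcium binding, had 205, 144, 293, 459.7 and 246 CPM in Musashi IP, against 109, 56.2, 95.5, 56.4 and 79.7 CPM in IgG. Its groups did not overlap, and the ratio was smallest in lysate 2 and largest in lysate 6 (3.24-fold, log2 1.696 ± 0.26, adjusted p = 0.00423). Syt13, which lacks the residues that coordinate calcium, had 166, 108, 189, 363 and 167 CPM in Musashi IP, against 93.4, 63.4, 70.9, 74.4 and 54.4 CPM in IgG. All its Musashi IP libraries were above all its IgG libraries (2.61-fold, log2 1.38 ± 0.21, adjusted p = 0.004202). Syt11, the closest relative of Syt4, had 69.4, 51.8, 87.4, 125 and 64.01 CPM in Musashi IP, against 45.4, 36.7, 38.4, 37.9 and 30.04 CPM in IgG. The groups of Syt11 did not overlap either, and lysate 3 had its narrowest pair (log2 1.02 ± 0.17, adjusted p = 0.00547). Syt17 rose by a log2 of 0.85 ± 0.17. Syt14 (0.43 ± 0.14, adjusted p = 0.05304) and Syt16 (-0.32 ± 0.11, adjusted p = 0.0584) were not called. In the annotation an antisense gene on the opposite strand covers 14.5% of the exonic bases of Syt4, and the strand setting of the counting is not given in the sources used here, so reads of that stretch cannot be assigned.

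Of the 8 plasma membrane syntaxins and SNAP-25 family genes, Snap29, Stx3, Stx2 and Stx1a rose. Snap29 encodes a SNAP-25 relative without a membrane anchor that acts on endosomes and autophagosomes, and it had the largest ratio of all 47 members. It had 50.7, 44.5, 79.1, 168 and 66.95 CPM in Musashi IP, against 18.9, 16.8, 17.9, 16.9 and 17.8 CPM in IgG. The 5 IgG libraries were nearly level while the Musashi IP libraries were all higher and spread widely, with lysate 6 on top (4.11-fold, log2 2.04 ± 0.26, adjusted p = 0.00339). Its exons overlap those of Pi4ka on the opposite strand over 1.74% of their bases. Snap25, the principal SNAP of regulated exocytosis in neurons and endocrine cells, had 387, 459.9, 445, 378 and 459.6 CPM in Musashi IP, against 411, 481, 513, 452 and 493 CPM in IgG. Each Musashi IP library of Snap25 was below its own IgG library, the groups overlapped, and the difference was not called (log2 -0.14 ± 0.08, adjusted p = 0.192). Snap23, its broadly expressed counterpart, and Snap47 had log2 ratios of 0.20 ± 0.12 and 0.06 ± 0.08, neither called.

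Stx3, a syntaxin of apical and granule membranes, had 102, 113, 113, 163 and 124 CPM in Musashi IP, against 77.9, 91.1, 81.3, 80.5 and 88.8 CPM in IgG. Its groups did not overlap, with the largest ratio in lysate 6 (log2 0.53 ± 0.12, adjusted p = 0.0135). Stx2, a related plasma membrane syntaxin, had 73.2, 61.7, 80.2, 142 and 60.7 CPM in Musashi IP, against 60.4, 55.8, 50.7, 67.7 and 43.3 CPM in IgG. Its groups overlapped, since IgG 6 was above the Musashi IP libraries of lysates 3 and 7, and all 5 pairs were higher in Musashi IP (log2 0.53 ± 0.14, adjusted p = 0.02498). Stx1a, the neuronal and endocrine partner of Snap25, had a log2 ratio of 0.51 ± 0.14 (adjusted p = 0.0264), and Stx4a, the syntaxin of constitutive and stimulated surface delivery, 0.07 ± 0.10 (adjusted p = 0.605). The calls of Stx1a, Stx2 and Stx3 were lost when lysate 7 was left out (adjusted p = 0.142, 0.0767 and 0.0548), and those of Stx1a and Stx2 also without lysate 5 (0.0595 and 0.0640) and with the lysate block removed (0.131 and 0.120).

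**Figure D2:**
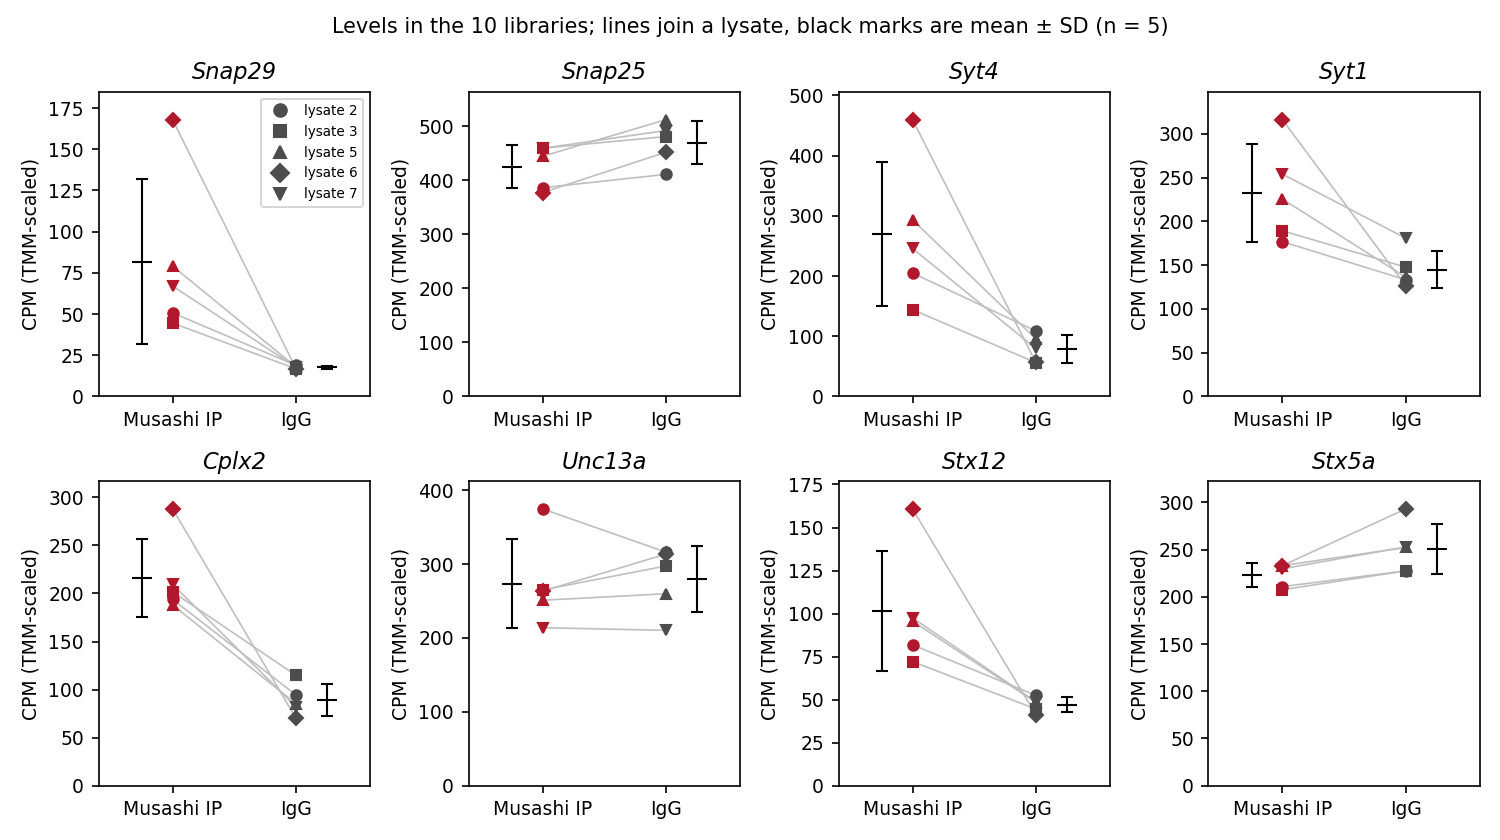
CPM (linear axis from 0) of 8 members in each library, Musashi IP left of IgG, with a line joining the libraries of each lysate and black marks for mean ± SD (n = 5). Snap29 runs from 44.5 to 168 CPM in Musashi IP and from 16.8 to 18.9 CPM in IgG, while the Snap25 groups overlap.

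The 8 endomembrane syntaxins had 2 that rose, Stx12 and Stx16. Stx12, a syntaxin of recycling endosomes, had 81.8, 72.1, 95.6, 161 and 97.5 CPM in Musashi IP, against 52.5, 44.6, 48.5, 41.3 and 48.7 CPM in IgG. Every Musashi IP library was above every IgG library, and lysate 6 stood well above the other pairs (2.07-fold, log2 1.05 ± 0.18, adjusted p = 0.00601). Stx16, which returns cargo from endosomes to the trans-Golgi network, had 358, 357, 401, 552 and 359 CPM in Musashi IP, against 286, 313, 281, 312 and 276 CPM in IgG. The groups did not overlap, and lysate 6 was the highest of the Musashi IP libraries (log2 0.45 ± 0.11, adjusted p = 0.0169). Leaving out lysate 5 or lysate 7 ended the call of Stx16 (adjusted p = 0.0503 and 0.0758), as did removing the block (0.0558). The members not called were Stx7 and Stx8 of late endosomes (0.34 ± 0.16 and -0.19 ± 0.09), Stx17 of autophagosomes (0.32 ± 0.11), Stx6 of the trans-Golgi network (0.32 ± 0.11), and Stx5a and Stx18 of the early secretory pathway (-0.17 ± 0.08 and -0.05 ± 0.09). Exons of Stx18 share 19.8% of their bases with Gm42858 and 12.5% with Nsg1 on the opposite strand.

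Among the 5 vesicle SNAREs tested, Vamp3, Vamp4 and Vamp2 rose. Vamp2, the VAMP of synaptic vesicles and secretory granules, had 215, 155, 153, 211 and 111 CPM in Musashi IP, against 171, 107, 97.99, 94.2 and 77.5 CPM in IgG. The groups overlapped because IgG 2 was high, as was Musashi IP 2, and each pair was higher in Musashi IP (log2 0.63 ± 0.13, adjusted p = 0.00904). Vamp3, a VAMP of recycling endosomes, had 55.7, 53.3, 66.1, 136 and 61.3 CPM in Musashi IP, against 44.7, 32.8, 33.6, 33.1 and 35.4 CPM in IgG. Its groups did not overlap, IgG 2 was the highest of the IgG libraries, and lysate 2 had the narrowest pair (log2 0.96 ± 0.22, adjusted p = 0.0146). Vamp4, which sorts between the trans-Golgi network and endosomes and is removed from maturing granules, had 118, 131, 169, 242 and 160.1 CPM in Musashi IP, against 102, 101, 96.6, 93.7 and 114 CPM in IgG. The lowest Musashi IP library was just above the highest IgG library (log2 0.65 ± 0.16, adjusted p = 0.0202). Without lysate 5 Vamp4 was no longer called (adjusted p = 0.0518), and without the block Vamp2 was not (0.104). Vamp8, an endosomal VAMP of regulated exocytosis in exocrine cells, had a log2 ratio of 0.52 ± 0.18 (adjusted p = 0.0586), and Vamp1, a paralog of Vamp2, 0.27 ± 0.09 (adjusted p = 0.0589).

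The syntaxin-binding proteins, 5 in number, had 2 that rose. Stxbp6 (amisyn), a SNARE-like protein that competes for syntaxin, had 24.5, 19.2, 33.3, 51.4 and 28.6 CPM in Musashi IP, against 18.4, 13.8, 19.8, 23.9 and 18.97 CPM in IgG. Its groups overlapped, since IgG 5 and IgG 6 were above Musashi IP 3 (log2 0.67 ± 0.13, adjusted p = 0.00778). Stxbp4, a syntaxin 4 partner known from insulin-stimulated traffic, had 92.98, 110.1, 142, 217 and 139 CPM in Musashi IP, against 72.5, 91.96, 97.5, 84.6 and 102 CPM in IgG. The groups overlapped, since Musashi IP 2 was below IgG 5 and IgG 7 (log2 0.59 ± 0.16, adjusted p = 0.0261). Stxbp5 (tomosyn), an inhibitor of SNARE assembly, had 158, 141, 215, 231 and 177 CPM in Musashi IP, against 156, 161, 213, 192 and 164 CPM in IgG. The pairs went both ways, with lysate 3 lower and lysate 6 higher in Musashi IP, and the groups overlapped (log2 0.04 ± 0.09, adjusted p = 0.741). Stxbp2 and Stxbp3, Munc18 family chaperones of syntaxins, had log2 ratios of -0.27 ± 0.11 and -0.20 ± 0.10, neither called. The call of Stxbp4 was lost without lysate 5, without lysate 7 and without the block (adjusted p = 0.0534, 0.0630 and 0.0628), and that of Stxbp6 without the block (0.0763).

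The 7 priming factors and complexins split. Cplx2, the complexin of adrenal chromaffin and many endocrine cells, had 194, 202, 188, 288 and 209 CPM in Musashi IP, against 94.4, 115, 85.2, 70.05 and 82.1 CPM in IgG. The groups did not overlap, and the ratio was smallest in lysate 3 and largest in lysate 6 (2.42-fold, log2 1.27 ± 0.17, adjusted p = 0.003403). Cplx1, its neuronal counterpart, was near the lower limit of detection at 1.62 ± 0.698 CPM in Musashi IP and 0.995 ± 0.233 CPM in IgG (mean ± SD, n = 5 each) and was not called (log2 0.67 ± 0.30, adjusted p = 0.121). Unc13d, the priming factor of cytotoxic and other immune cell granules, had 3.96, 5.34, 4.67, 3.15 and 3.81 CPM in Musashi IP, against 6.18, 7.85, 7.04, 4.66 and 4.35 CPM in IgG. It was low in all libraries and lower in Musashi IP in 5 of 5 pairs, while the groups overlapped (log2 -0.51 ± 0.15, adjusted p = 0.0372). The 8 immune markers were also lower in Musashi IP in 5 of 5 pairs, and their part in the Unc13d result was not tested. The Unc13d call was lost on leaving out any 1 lysate (adjusted p = 0.0505 to 0.168), without the block (0.154) and by DESeq2 (0.0844).

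Unc13a, the principal priming factor of neurons and endocrine cells, had 375, 265, 251, 263 and 214 CPM in Musashi IP, against 316, 297, 259.8, 314 and 210.3 CPM in IgG. Its groups overlapped and its pairs went both ways, with 2 of 5 higher in Musashi IP (log2 -0.04 ± 0.10, adjusted p = 0.771). Unc13b, a further priming factor of the same family, was likewise not called (-0.15 ± 0.09). Cadps and Cadps2, the CAPS proteins that prime dense-core granules, had log2 ratios of -0.27 ± 0.11 and 0.04 ± 0.08 with adjusted p of 0.0931 and 0.751.

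All 3 disassembly genes among the members rose, by less than 2-fold. Napg, a further SNAP adaptor gene that is not a member, was not called (log2 0.19 ± 0.10). Napa, the alpha-SNAP adaptor, had 108, 81.6, 117, 156 and 106 CPM in Musashi IP, against 81.3, 63.4, 76.6, 63.9 and 52.7 CPM in IgG. Its groups did not overlap, the 2 lowest IgG libraries were those of lysates 7 and 3, and the lowest Musashi IP library was just above the highest IgG library (log2 0.73 ± 0.15, adjusted p = 0.00978). Napb, the brain-enriched beta-SNAP, had 115, 130.2, 138, 173 and 155 CPM in Musashi IP, against 85.7, 111, 102, 109 and 94.7 CPM in IgG. Its groups also stayed apart, and lysate 7 rather than lysate 6 had the largest ratio (log2 0.49 ± 0.10, adjusted p = 0.0102). Nsf, the ATPase itself, had 165, 131, 239, 331 and 206 CPM in Musashi IP, against 146, 104, 154, 154 and 122 CPM in IgG. The groups of Nsf overlapped, since Musashi IP 3 was below 3 of the IgG libraries (log2 0.60 ± 0.14, adjusted p = 0.0145). Without lysate 7 neither Nsf (adjusted p = 0.0618) nor Napb (0.0775) was called, and Nsf was also lost without the block (0.0808).

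Of the 23 called members, 12 kept the call under all 14 alternative settings: Syt1, Syt7, Syt9, Syt4, Syt11, Syt13, Syt17, Snap29, Stx12, Vamp3, Cplx2 and Napa. The other 11 lost it under at least 1 setting. Scaling by library totals alone, without TMM, moved the all-gene median log2 by -0.18 and gave 21 members higher and 8 lower. The 8 lower ones were Snap25 (-0.32), Stx5a (-0.34), Stx8 (-0.37), Stxbp2 (-0.45), Stxbp3 (-0.38), Cadps (-0.45), Syt16 (-0.50) and Unc13d, all of which were below 0 with TMM as well.

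Differences within a lysate between members of similar name, not all of one protein family, show how unequally they were enriched. The pairs were chosen after their values were seen and carry no test. The log2 ratio of Snap29 was above that of Snap25 by 1.504, 1.46, 2.34, 3.56 and 1.999 in lysates 2, 3, 5, 6 and 7 (mean 2.17 ± 0.86, SD). Snap29 also exceeded Snap23 in all 5 lysates (mean 1.83 ± 0.51). Stx12 exceeded Stx5a by 0.75, 0.82, 1.09, 2.29 and 1.14, with the widest gap in lysate 6. Syt4 exceeded Syt1 by 0.51, 0.998, 0.89, 1.699 and 1.13, again in every lysate. Cplx2 exceeded the scarce Cplx1 by 0.76 ± 0.35 and Stxbp6 exceeded Stxbp2 by 0.93 ± 0.50. Cplx1 had 5 to 25 counts per library, so the prior count of 2 in single-lysate ratios pulls its ratios toward 0. The fitted log2 ratios (± SE) were 1.27 ± 0.17 for Cplx2 and 0.67 ± 0.30 for Cplx1. Vamp3 and Vamp2 were closer, at -0.01, 0.17, 0.33, 0.87 and 0.26, with lysate 2 at no difference.

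The lysates differed in how strongly the members were enriched. The median log2 ratio over the 47 members was 0.23, 0.12, 0.48, 1.01 and 0.44 in lysates 2, 3, 5, 6 and 7, and that over protein-coding genes 0.05, 0.08, 0.09, 0.28 and 0.11. Lysate 6 gave the highest ratio for 21 of the 22 members called higher, and Napb was the exception. Lysate 3 gave the lowest ratio for 15 and lysate 2 for 7 of them. Without lysate 6 the number of members called higher was 24 and their median log2 over all 47 was 0.33. Without lysates 2, 3, 5 and 7 the number called higher was 24, 22, 17 and 15. The count over all genes tested moved too, to 4188, 3028, 2715 and 2288 in these fits. It was 3632 without lysate 6 and 3804 with all lysates.

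**Figure D3:**
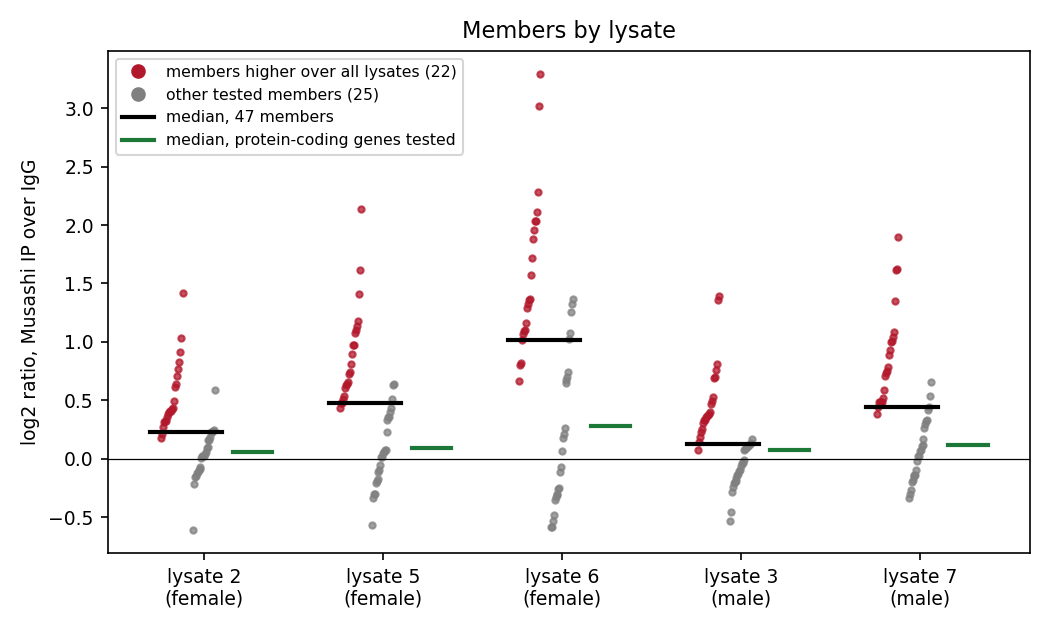
Log2 ratio of Musashi IP over IgG in each lysate, female lysates 2, 5 and 6 left of male lysates 3 and 7, with points for the members, black lines for their median and green lines for the median of protein-coding genes. Members centre on 1.01 in lysate 6 and on 0.12 in lysate 3.

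Whether the Musashi IP differed between sexes was asked with the female minus male difference of the antibody effect. No member passed (edgeR quasi-likelihood test, Benjamini-Hochberg adjusted p of 1 for all 47), nor did any of the 20550 genes, and DESeq2 also called none. At an unadjusted p under 0.05 there were 0 members and 187 genes (0.91%). With lysate 2 left out, 10 members and, of 20543 genes, 1476 higher and 246 lower were at an unadjusted p under 0.05, and none passed the adjusted threshold. The member differences ran from -0.22 (Unc13d) to 0.99 (Cplx1) on the log2 scale, with a median of 0.18, and the smallest unadjusted p was 0.133. The difference was above 0 for all 22 members called higher, as it was for 90.1% of all genes called higher. Lysate 6 is one of the 3 female lysates, and with it left out the median difference over the members was 0.05.

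Member levels were also compared between the 3 female and 2 male IgG libraries, which are control precipitates and not the input RNA of the lysates. Of 46 members tested (Cplx1 had too few counts), Cadps2 was the one called, and it was higher in females, against 2.66% of 20987 genes higher and 1.84% lower. It had 205, 244 and 259 CPM in female IgG libraries 2, 5 and 6, against 131 and 159 CPM in male IgG libraries 3 and 7. The groups did not overlap, and the log2 ratio of female over male was 0.70 ± 0.18 (edgeR quasi-likelihood test, adjusted p = 0.0493). In RNA from whole-gland lysates, fewer cells of a type and less RNA per cell cannot be told apart. The call of Cadps2 was lost without IgG 3, 5, 6 or 7 (adjusted p = 0.325, 0.1195, 0.1504 and 0.163), at a minimum of 2 CPM (0.0513) and with library totals (0.126). Without IgG 5 the 1 member called was Syt3 in its place. At an unadjusted p under 0.05 there were 8 members, among them Syt3 (log2 1.28, adjusted p = 0.0789) and Syt14 (log2 -0.56, adjusted p = 0.0937), against 16.6% of all genes.

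Levels between genes are compared per kilobase of exon, as CPM per kb in the IgG libraries (mean ± SD, n = 5). Stx16 and Snap25 were highest, at 74.1 ± 4.48 and 69.2 ± 5.801 CPM per kb, and did not differ beyond their spread. Stx5a followed at 43.2 ± 4.62, then Snap47 at 32.5 ± 2.36, Vamp2 at 28.8 ± 9.499 and Syt7 at 25.8 ± 5.45 CPM per kb, the last 3 within their spreads of each other. The lowest members were Syt16 (2.23 ± 0.693), Unc13d (1.29 ± 0.322) and Cplx1 (0.455 ± 0.107). Snap29, which was enriched most, was at 5.12 ± 0.245 CPM per kb in IgG. Exons of Snap47 overlap those of Jmjd4 on the opposite strand over 11.6% of their bases.

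Musashi motifs were searched for in each gene's longest 3′ UTR of the annotation, on the sense strand only, as GTAGT, as the forms with A for the first base, and as the forms with 1 or 2 more T after the first base, overlapping matches included. At least 1 was present in 20 of the 22 members called higher (90.9%) and in 18 of the 24 not called (75%). Unc13d had none. The share was 73.3% over 13666 protein-coding genes tested, which here are those with a 3′ UTR of at least 100 nt. This limit holds for all values over protein-coding genes in this paragraph. Among all protein-coding genes called higher the share was 87.5%. The median 3′ UTR was 2251.5 nt long in members called higher and 1348.5 nt in members not called, against 1270.5 nt over all protein-coding genes tested, and the part of length in these shares was not tested. Per kilobase of 3′ UTR the median was 1.62 motifs in members called higher and 1.27 in members not called, against 1.51 over all protein-coding genes tested. Among all protein-coding genes it was 1.70 in those called higher and 1.38 in those not called. It was highest, at 1.94, in those called lower, so motif density did not rise steadily with enrichment. Syt13 and Napa were called higher with no motif in the annotated 3′ UTR. Syt3, Syt5, Stx4a, Snap47, Vamp8 and Stxbp2 also had none and were not called. Cadps had the most motifs per kilobase of all members and was not called, and Snap25 holds the sites printed above.

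**Figure D4:**
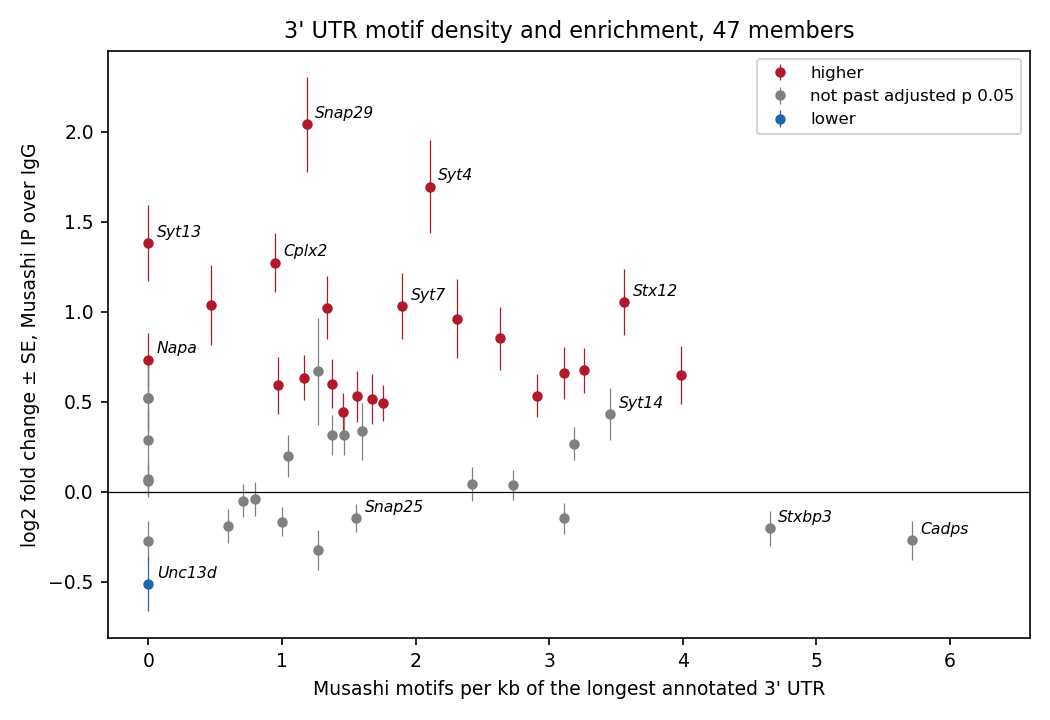
Musashi motifs per kilobase of the longest annotated 3′ UTR (x axis) against the log2 ratio of Musashi IP over IgG (y axis) for the 47 members, with bars for SE and colour for the call. Syt13 (1.38) and Napa (0.73) were called higher at 0 motifs, and Cadps (-0.27) has the highest density.

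A list of 66 other SNARE and exocytosis genes was read the same way. Of 62 tested, 19 were higher (30.6%) and 4 lower (6.45%), with a median log2 of 0.09, close to the 25.7% higher, 4.01% lower and median of 0.09 over protein-coding genes. The largest ratios were those of the SNARE genes Gosr2 (2.22 ± 0.27), Gosr1 (1.601 ± 0.24), Sec22b (1.53 ± 0.23) and Ykt6 (1.504 ± 0.18). Gosr2 averaged 446 ± 289 CPM in Musashi IP and 83.2 ± 13.8 CPM in IgG (SD, n = 5 each). The lower genes were the calcium sensor Syt2 (-0.82 ± 0.18), the syntaxin Stx19 (-0.49 ± 0.15), Scfd1 (-0.38 ± 0.09), which assists early secretory SNAREs, and Ppfia2 (-0.31 ± 0.08), a liprin of the presynaptic active zone.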

How the data were processed

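The deposited file holds raw read counts per Ensembl gene, which the authors gave as whole numbers with no normalization. Per the submitters' processing notes, the tools were FastQC 0.11.8, Trimmomatic 0.39 and STAR 2.7.1a, and the build GRCm39. Not given in the sources used here are the counting program, annotation release and strand setting. No molecular identifiers are described, so counts are not independent molecules. Symbols, exon lengths and 3′ UTRs were taken by gene ID from GENCODE M21 on GRCm38 (52135 IDs, 94.1%, matched). All coordinates are GRCm38.

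In R 4.3.3, edgeR 4.0.16 (filterByExpr, TMM over tested genes, glmQLFit, glmQLFTest) compared Musashi IP with IgG in the 10 libraries, blocked by lysate, on 4 residual degrees of freedom. The sex difference of that effect (female minus male), and female over male in IgG, had 3. P-values were Benjamini-Hochberg adjusted over all genes tested, with a threshold of 0.05. SE is the log2 ratio divided by the square root of F. Single-lysate log2 ratios used a prior count of 2. The antibody fit was run on simulated counts with the same dispersion for all genes and the same fold change in every lysate. It therefore does not cover ratios that vary between lysates, as they did here. The labels say that each lysate was split, so lysate numbers pair libraries. Deviations from group means correlated at 0.523, 0.679, 0.602, 0.186 and 0.778 in lysates 2, 3, 5, 6 and 7.

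Alternatives were DESeq2 1.42.0 and its size factors, library totals, no filter, a 2 CPM filter, each lysate left out, no block, limma 3.58.1 voom, length and GC correction, and protein-coding genes only. Members shown library by library were, per role group, up to 3 called of smallest adjusted p, the highest mean CPM and any called lower. Members, lists and rules were chosen with earlier results of these data known.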

Additional observations from a re-analysis of the deposited data

Results flagged for a closer look

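For each of the 47 members, the 5 Musashi IP values, the 5 IgG values and the 5 lysate ratios were searched for a value far from the other 4, judged by its gap to the nearest value as a share of the range, in 141 searches. A share above 0.71 was marked. With independent, normally distributed values about 1 in 20 searches would be marked (7.05 of 141). Here the searches share libraries and the ratios reuse the same values, so that number is only a rough guide. There were 15 marked, 11 of them in lysate 6. In Musashi IP 6 the high values were Syt9 at 154 CPM, Stx2 at 142 CPM, Snap29 at 168 CPM, Stx12 at 161 CPM, Stx16 at 552 CPM, Vamp3 at 136 CPM and Cplx2 at 288 CPM. The log2 ratio of Musashi IP over IgG in lysate 6 stood apart for Stx3 (1.01), Stx12 (1.96), Stxbp4 (1.36) and Stx5a (-0.33, the lowest of its lysates). The other 4 were the lysate 2 ratio of Snap47 (0.025), the lysate 7 ratio of Unc13d (-0.18), Vamp3 in IgG 2 (44.7 CPM) and Stxbp2 in IgG 7 (69.3 CPM).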

How the results depend on the processing

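The number of members called higher was 22 and ran from 15 to 25 over the settings. The number called lower was 1 and moved to 8 with library totals, 5 with the length and GC correction, 4 at a minimum of 2 CPM, 2 with DESeq2 size factors or protein-coding genes only, 0 with DESeq2 and 0 with no filter (4 members at an unadjusted p under 0.05 in either), and it ran from 0 to 2 on leaving out a lysate. Without the replicate block 15 members were higher and 0 lower (1 at an unadjusted p under 0.05). Over all genes, counts of higher and lower calls were 3149 and 4107 with library totals, 2407 and 176 without the block, 2715 and 182 without lysate 5, and 2288 and 597 without lysate 7. The lysate block changed 8 calls of members, all named above. Calls were also lost for Stx1a with library totals (adjusted p = 0.0776), Stx2 with the length and GC correction (0.0745) and Unc13d with no filter (0.0751). The number of members higher in female IgG libraries was 1, and it was 2 with DESeq2 or no filter, 0 with library totals or at 2 CPM (2 and 4 at an unadjusted p under 0.05), and 0 to 1 on leaving out a library. Members near 0 changed sign, none of them called. With library totals, the 2 CPM filter and protein-coding genes only, Stx4a was at -0.10, -0.024 and -0.027, Snap47 at -0.12, -0.035 and -0.039, Stxbp5 at -0.13, -0.053 and -0.056, and Cadps2 at -0.14, -0.059 and -0.062. With the length and GC correction Cadps2 was at -0.060 and Unc13b at 0.016. On leaving out 1 lysate at a time Stx4a ran from -0.045 to 0.13, Snap47 from -0.032 to 0.11, Stxbp5 from -0.044 to 0.10, Cadps2 from -0.066 to 0.096 and Unc13a from -0.13 to 0.015. The cause of these changes was not tested. The sexes rest on 3 and 2 lysates, and Cplx1 and Unc13d on few reads.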
